A study of Mus musculus with 8 samples.

Results

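The genes of the hepatic respiratory chain were compared between 2 groups of mouse liver libraries. They were the protein-coding rows of the expression table whose symbols begin with Nduf, Uqcr, Cox4 to Cox8 or Atp5, the 4 Sdh genes, and the 13 protein genes of the mitochondrial genome. This gave 109 of the 21358 genes in the table, 96 of them nuclear and 13 mitochondrial. Both groups had gone through 22 weeks of an every-other-day fasting regimen. In FG (feeding glucose; libraries 93, 94, 95 and 96) glucose belonged to the feeding phase, and in SG (starvation glucose; libraries 101, 103, 104 and 105) to the starvation phase. No dose, strain, sex, age, batch or time of collection is given in the labels. Whether each library came from its own animal is not stated there, and p-values therefore reflect library-to-library spread, which may be technical.

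Levels are in FPKM, a count of fragments scaled to gene length and to the size of the library, which sets genes of different length on 1 scale. Libraries held 36545128 to 41977438 counted fragments. Differences between groups are written as SG minus FG after taking log2(FPKM + 1). Adding 1 shrinks the differences of weakly expressed genes. They were tested with limma, with Benjamini-Hochberg adjustment over the 9867 genes that had an FPKM of at least 1 in at least 4 libraries. Genes with an adjusted p under 0.05 are called here. Of 5 hepatocyte markers, Alb (35965 to 49861 FPKM), Ttr and Hnf4a differed by -0.09 to 0.03, Apoa1 was called higher in SG (log2 difference 0.44, limma adjusted p = 0.0447), and Tat differed by 1.16 (limma adjusted p = 0.137). The summed markers of Kupffer cells, stellate cells and erythroid cells overlapped between the groups. Within the erythroid list Alas2 was called higher in SG (log2 difference 0.68, limma adjusted p = 0.0146). The globins Hba-a1, Hba-a2, Hbb-bs and Hbb-bt differed by -0.15, -0.24, -0.11 and -0.21 and were not called. Summed endothelial markers ran from 69.46 to 85.91 FPKM in FG and from 52.38 to 61.83 in SG. Most of that gap was Clec4g (means 51.61 and 34.72 FPKM), which was called lower in SG (log2 difference -0.57, limma adjusted p = 0.0161). Stab2, Kdr, Lyve1 and Pecam1 differed by -0.01, -0.09, 0.24 and -0.32 and were not called. Summed cholangiocyte markers ran from 21.88 to 27.67 in FG and from 13.03 to 19.07 in SG, mostly through Spp1 (means 19.03 and 12.41). Krt19 (means 3.234 and 1.146, limma adjusted p = 0.214), Krt7 (0.743 and 0.3082) and Epcam (0.7751 and 0.4896) also had lower means in SG. Sox9 went the other way, with means of 0.5188 and 0.6872. The part of these cell type markers in the results below was not tested. In bulk liver, fewer cells of a type and less RNA per cell cannot be told apart.

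The respiratory chain passes electrons from NADH (complex I) and succinate (complex II) through coenzyme Q, complex III, cytochrome c and complex IV to oxygen, and the proton gradient this builds drives ATP synthesis by complex V. Complexes I, III, IV and V are assembled from subunits of both genomes, while complex II is entirely nuclear encoded. In hepatocytes the chain burns the electrons of fatty acid oxidation and supplies the ATP for gluconeogenesis and urea synthesis. The mitochondrial genes are transcribed from both strands as long precursors that are then cut apart, so their RNA levels also depend on processing and stability.

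Several mitochondrial genes have a near-identical copy in the nuclear genome, which bears on how their values can be read. In GRCm38, chr1:24611535-24616197 holds 7 annotated unprocessed pseudogenes that match the mitochondrial genome from within COX1 to within ND4. The aligned parts of COX2, ATP6, COX3, ND4L and ND4 were 100% identical to their copies, ND3 was 99.71% identical over 345 bases and COX1 98.78% over 492. Below are the 60-base stretches that hold every base found to differ, in pairs of the mitochondrial gene and its copy. Capitals mark differing bases, with positions counted from 1 at the gene's start: T1056A, C1057T, A1059G, A1060G, C1062A and A1066T in COX1, and T3C in ND3. COX1 is shown at chrMT:6381-6440 on the plus strand beside Gm29216 at chr1:24616138-24616197 on the minus strand, and ND3 at chrMT:9459-9518 on the plus strand beside Gm28438 at chr1:24613060-24613119 on the minus strand.
COX1: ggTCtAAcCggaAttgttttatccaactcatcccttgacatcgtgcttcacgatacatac
Gm29216: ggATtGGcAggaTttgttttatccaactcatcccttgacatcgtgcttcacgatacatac
ND3: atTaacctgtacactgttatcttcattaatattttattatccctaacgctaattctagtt
Gm28438: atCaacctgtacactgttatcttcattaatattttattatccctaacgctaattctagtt

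Windows of 150 bases, the read length, were then sought in the annotated transcripts of other genes. They were found there for 99.8% of the windows of COX3, 99.4% of those of COX2 and of ATP6, 98% for ND4L, 97% for ND3, 59.2% for ND4 and 23.6% for COX1. No window of ND1, ND2, ND5, ND6 or CYTB had such a match. ATP8 has no annotated copy, but it lies between the copied genes COX2 and ATP6 and overlaps ATP6. How the authors counted reads with more than 1 position is not known here. The values of COX2, ATP8, ATP6, COX3, ND3 and ND4L are therefore uncertain. Those of ND4 and COX1, which are copied in part, are also less certain.

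Promoters are shown for the 3 nuclear members that passed the test. An exact string of letters was sought in them for NRF1, a transcription factor of many respiratory genes. Each sequence is the 150 bases before the start of the gene (RefSeq, GRCm38.p6, minus strand, written 5′ to 3′ along the gene). Capitals mark the letters sought on both strands, GCGCA followed by any base and then GCGC. Ndufa8 (chr2:36049339-36049488) holds 1 match, Sdha (chr13:74350241-74350390) holds 3 and Ndufb10 (chr17:24724424-24724573) holds 0. Near matches were not counted, so a count of 0 does not show that a site is absent.
Ndufa8: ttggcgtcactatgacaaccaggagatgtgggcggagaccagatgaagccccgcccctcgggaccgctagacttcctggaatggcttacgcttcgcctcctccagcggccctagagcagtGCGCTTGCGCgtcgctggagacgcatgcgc
Sdha: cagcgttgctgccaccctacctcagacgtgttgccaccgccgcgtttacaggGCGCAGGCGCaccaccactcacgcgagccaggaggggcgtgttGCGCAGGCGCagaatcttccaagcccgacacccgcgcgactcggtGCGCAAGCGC
Ndufb10: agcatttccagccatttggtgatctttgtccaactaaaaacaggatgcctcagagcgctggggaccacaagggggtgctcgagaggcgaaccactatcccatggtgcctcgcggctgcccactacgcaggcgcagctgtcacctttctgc

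RefSeq promoters of 300 bases (250 before the start and 50 after it) were found for 77 of the 96 nuclear members. The NRF1 letters occurred in 24.7% of these members, in 12.1% of the 8002 tested genes with a promoter and in 5.19% of all 27025 genes with one. For the ETS letters CCGGAAG, the core bound by GABPA, the shares were 24.7%, 21.5% and 9.93%. For the YY1 letters AAGATGGCG they were 10.4%, 4.07% and 1.64%. Both strands were searched, and the median GC content was 58.5% for members, 60.7% for tested genes and 52.7% for all genes. A match of letters is a description of the sequence and not a bound site.

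Of the 109 members, 106 were tested, and 4 were called: Ndufb10 and ND6 were higher in SG and Ndufa8 and Sdha were lower. That is 3.77% of the members tested, beside 19.4% of all tested genes (3.73% called higher and 15.6% lower). The 4 values of each group did not overlap for 10 members (9.43%), beside 26.1% of all tested genes (4.35% higher and 21.8% lower). With 1 library left out, the number of members called was 0 without FG 93 (8.45% of all genes), 3 without FG 94 (14.5%), 6 without SG 101 (23.9%) and 1, Ndufa8, without any of the other 5 (10.5% to 13.9%). An unadjusted p below 0.05 was found for 14 members, 8 higher and 6 lower, and for 35.6% of all tested genes. Estimates were small: 74.5% of the members differed by less than 0.2 on the log2 scale, against 46.9% of all tested genes.

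Those shares depended on how libraries were scaled. The median difference over all tested genes was -0.14 on the deposited scale and 0.01 after median-ratio scaling, which sets the typical gene equal between libraries. After that scaling 12 members were called, all of them higher in SG, which is 11.3% of the members beside 10.6% of all genes (5.52% higher and 5.06% lower). Trimmed-mean scaling gave 11 higher members and 0 lower, beside 5.33% and 5.17% of all genes, and quantile scaling 0 and 2, beside 4.68% and 6.24%. With library weights 5 members were called higher and 4 lower, beside 27.9% of all genes (5.8% and 22.1%). On the deposited scale the median of the members was 0.03, and after median-ratio scaling it was 0.20. In the fits below, values are on the deposited scale unless another is named. When FG 93, SG 104 and SG 105 were left out together, an alternative chosen after seeing the data because muscle genes were highest in them, no member was called and 74 of all tested genes were.

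**Figure D1:**
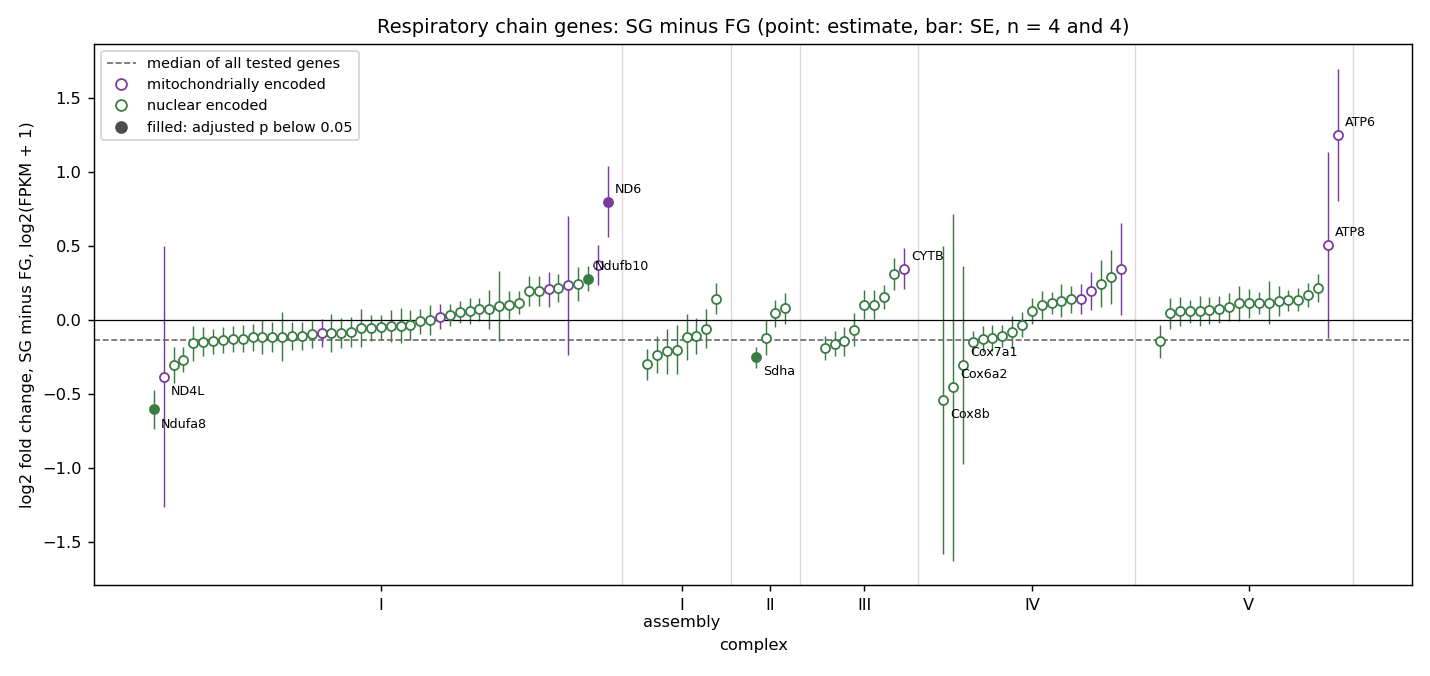
The vertical axis is the SG minus FG difference on the log2(FPKM + 1) scale for each of the 106 tested members, ordered by size within each complex along the horizontal axis. Points are limma estimates, bars are SE (n = 4 and 4), filled points passed the test, purple is mitochondrial and green nuclear, and the dashed line is the median of all tested genes (-0.14). Most estimates lie close to 0, and the widest bars belong to ATP6, ATP8, ND3 and ND4L, which lie inside the copied interval, and to Cox6a2, Cox7a1 and Cox8b.

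Complex I, the NADH dehydrogenase, gave 3 of the 4 calls. Ndufa8, an accessory subunit exposed to the intermembrane space with paired cysteines, fell. Its FPKM were 139.5, 117.4, 156.7 and 135.3 in FG 93, 94, 95 and 96, and 114.2, 82.23, 81.01 and 84.08 in SG 101, 103, 104 and 105. All SG values lay below all FG values, with SG 101 nearest to FG. The means were 137.2 ± 16.2 in FG and 90.38 ± 15.9 in SG (SD, n = 4 each), and the log2 difference was -0.60 (SE 0.133, limma adjusted p = 0.017; exact two-sided permutation p = 0.0286, the smallest that 4 against 4 allow). Without FG 93 the limma adjusted p was 0.0511, and over the 20 alternatives it ran from 0.00216 to 0.282. After median-ratio scaling the difference was -0.43 (limma adjusted p = 0.0789).

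Ndufb10, an accessory subunit of the membrane arm, rose. It stood at 202.9, 171.2, 200.8 and 183 FPKM in the FG libraries and at 233, 214.7, 229.3 and 241.9 in the SG libraries. Every SG value lay above every FG value, and FG 94 was the lowest library. The mean went from 189.5 ± 15.1 to 229.7 ± 11.3 FPKM (SD, n = 4 each), a log2 difference of 0.28 (SE 0.0853, limma adjusted p = 0.0488). The call lay at the threshold and was lost whichever of the 8 libraries was left out, with a limma adjusted p of up to 0.113. These values rested on 4520 to 6342 fragments per library for Ndufb10 and on 2389 to 5231 for Ndufa8.

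**Figure D2:**
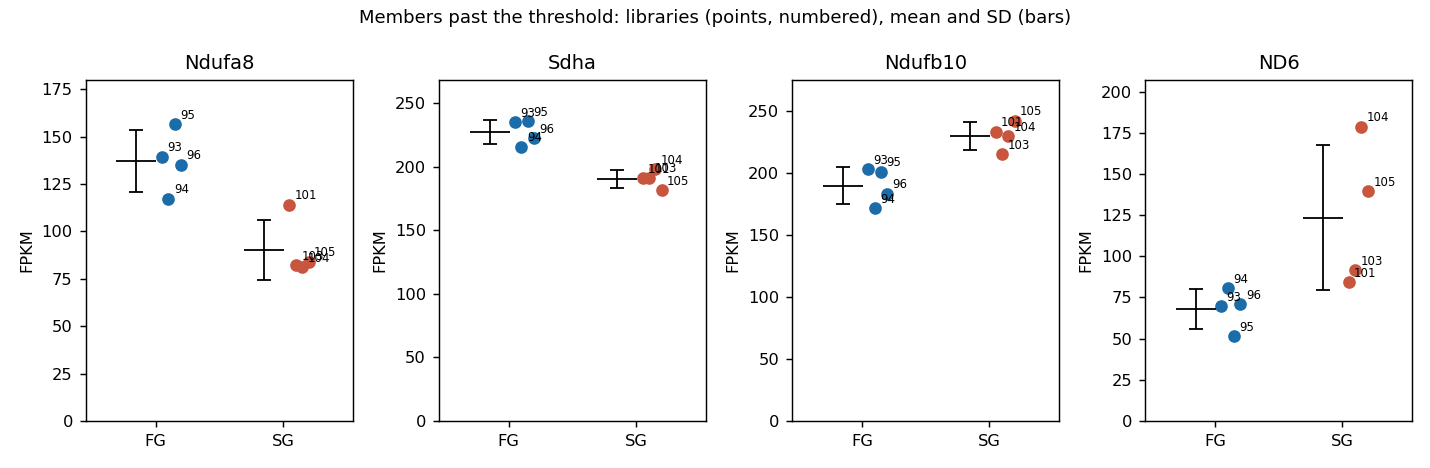
FPKM (vertical axis, from 0) of the 4 called members in FG (blue) and SG (red), with libraries as numbered points and the mean and SD (n = 4) as black bars. In each panel the 4 values of SG lie outside the range of FG. ND6 is the member whose SG libraries spread most, from 84.22 to 178.6.

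Most other nuclear subunits of complex I had estimates near 0. Of 40 nuclear members tested, which count the gene copies Ndufab1-ps, Ndufb4b and Ndufs6b, 13 had a positive and 27 a negative difference. Their median of -0.05 became 0.12 after median-ratio scaling, so the sign of the median was set by the scaling. The 7 core subunits, which carry the flavin, the iron-sulfur clusters and the quinone site, had a median of -0.05 as well. Among them Ndufv2, an iron-sulfur protein of the NADH-oxidizing module, stood at 54.95 ± 3.53 FPKM in FG and 64.07 ± 6.62 in SG (limma adjusted p = 0.139). Ndufs1, the largest of the iron-sulfur subunits, differed by 0.03, from 40.17 to 42.79 FPKM in FG and from 41.16 to 45.7 in SG.

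Among accessory subunits, Ndufa1, a small subunit of the membrane arm, stood at 80.17, 89.72, 91.38 and 86.72 FPKM in FG and 66.33, 76.22, 78.44 and 67.79 in SG. The groups did not overlap, but the test was not passed (log2 difference -0.27, limma adjusted p = 0.0605). Ndufa5 differed by 0.24 (limma adjusted p = 0.155) and Ndufs4, a subunit of the matrix arm whose loss causes Leigh syndrome, by 0.20 (limma adjusted p = 0.193). Ndufab1-ps, named as a pseudogene of the acyl carrier protein Ndufab1 but listed as protein coding, differed by -0.30 (limma adjusted p = 0.104), and Ndufab1 itself by -0.09. Tested nuclear members of complex I ranged from Ndufb9 at a mean of 208.4 FPKM in FG and 217.1 in SG down to the gene copy Ndufb4b at 1.407 and 1.204. Ndufb4c, 1 of the 3 members below the filter and a processed pseudogene in GENCODE, stayed at or under 0.2156 FPKM. Of the windows of Ndufb4, 29.3% occur in Ndufb4c, so reads of these relatives are hard to assign.

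The 8 Ndufaf genes encode factors that build complex I and are not part of it. Their mean FPKM ran from 1.285 to 16.7 with a median of 6.378, beside a median of 67.73 for the nuclear members of complex I. None passed the test and 1 had an unadjusted p below 0.05, beside 19.4% and 35.6% of all tested genes. Of the 8 differences, 7 were negative (median -0.16, and -0.03 after median-ratio scaling, beside -0.14 and 0.01 for all tested genes). Ndufaf6 stood at 3.124, 3.647, 2.748 and 3.191 FPKM in FG and at 2.349, 2, 2.6 and 2.618 in SG. Its groups did not overlap (log2 difference -0.30, limma adjusted p = 0.0729). Ndufaf1, which acts on the membrane arm, differed by -0.23 (limma adjusted p = 0.215), and Ndufaf8, the most abundant of the 8, by 0.14 (limma adjusted p = 0.37).

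Complex II, succinate dehydrogenase, is both a respiratory complex and an enzyme of the citric acid cycle. Sdha, its flavoprotein that oxidizes succinate, fell. Its FPKM were 235.1, 216, 235.7 and 222.5 in FG and 190.9, 191.6, 198 and 181.5 in SG. The 2 groups were separated by a gap between SG 104 and FG 94, and the means were 227.3 ± 9.7 and 190.5 ± 6.81 (SD, n = 4 each). The log2 difference was -0.25 (SE 0.0729, limma adjusted p = 0.0398). It was -0.08 after median-ratio scaling (limma adjusted p = 0.503). Of the 8 fits on 7 libraries, only that without SG 101 kept the call, and the others had a limma adjusted p of up to 0.109.

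The other 3 subunits of complex II did not pass the test. Sdhb, the iron-sulfur subunit, had means of 182.4 ± 11.6 FPKM in FG and 193.3 ± 25.8 in SG, with SG 101 highest at 230. The membrane anchors Sdhc and Sdhd differed by -0.12 and 0.04 (limma adjusted p = 0.502 and 0.752). The levels of all 4 subunits lay within 121.9 to 235.7 FPKM. Whether Sdha differed from its partners was not tested.

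Complex III, the cytochrome bc1 complex, had 8 nuclear members and CYTB, and none passed the test, beside 19.4% of all tested genes. Uqcrb, a small subunit that touches the quinone pocket, stood at 141.7, 154.5, 122.6 and 155 FPKM in FG and 152.4, 183.2, 189.6 and 185.6 in SG. SG 101 lay inside the FG range, while the other 3 SG libraries lay above it (log2 difference 0.31, limma adjusted p = 0.0732). Uqcrc2, a core protein, went the other way without overlap, from 137.1 to 160.9 FPKM in FG and from 122.5 to 134.9 in SG (log2 difference -0.19, limma adjusted p = 0.128). Part of that gene's sequence, 20.5% of its windows, also lies in the overlapping transcript of Pdzd9. The Rieske protein Uqcrfs1 and the hinge protein Uqcrh, the least and the most abundant, differed by -0.14 and 0.16 (limma adjusted p = 0.319 and 0.202).

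CYTB, the cytochrome b that carries both quinone sites of complex III and has no copy in the interval above, stood at 8630, 10426, 7067 and 9879 FPKM in FG and 9896, 12602, 11791 and 11142 in SG. FG 94 reached into the SG range. The means were 9001 ± 1490 and 11358 ± 1140 (SD, n = 4 each; log2 difference 0.35, SE 0.14, limma adjusted p = 0.112). The summed nuclear genes of complex III had means of 1381 FPKM in FG and 1414 in SG.

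Complex IV, cytochrome c oxidase, contains 3 mitochondrial subunits at its core and nuclear subunits, several of which exist as tissue forms. None of the 19 tested members was called, 16 nuclear and 3 mitochondrial, beside 19.4% of all tested genes. None had an unadjusted p below 0.05, beside 35.6% of all tested genes. Cox4i1, the common form of subunit 4 and the most abundant nuclear member, stood at 508.4 ± 44.4 FPKM in FG and 465.9 ± 26.4 in SG (SD, n = 4 each; limma adjusted p = 0.358). Its counterpart Cox4i2, induced by low oxygen in lung, was at or under 0.5394 FPKM and was not tested. Cox6b1 and its testis form Cox6b2 showed the same order: the first stood at 362.5 to 512.5 FPKM, the other at no more than 0.547 and untested. Cox7a2 differed by 0.12 and Cox7a2l, which helps complexes III and IV associate, by -0.15 (limma adjusted p = 0.294 and 0.191). Ndufa4, first named as a complex I subunit and now counted with complex IV, stood at 359.4 ± 11.6 and 334 ± 17.1 FPKM, and its relative Ndufa4l2 at 1.407 ± 0.315 and 1.88 ± 0.626 (SD, n = 4 each).

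The heart and muscle forms of 3 complex IV subunits spread widely within each group, and none of the 3 was called. Cox6a2 stood at 37.25, 0.0389, 0.0723 and 2.574 FPKM in FG 93 to 96 and at 0.0387, 0, 8.32 and 3.448 in SG 101 to 105. Cox8b stood at 29.74, 0, 1.313 and 2.092 in FG and 0, 0.4523, 9.311 and 2.276 in SG. Cox7a1 stood at 18.24, 0.7802, 2.952 and 2.422 in FG and 1.33, 1.725, 6.885 and 2.975 in SG. FG 93 was highest for all 3 genes and SG 104 next, and the limma adjusted p was 0.808, 0.741 and 0.774. The liver forms in the same libraries were Cox6a1 at 283.6 to 368.8 FPKM, Cox8a at 205.1 to 259.3 and Cox7a2 at 118.4 to 140.4.

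Genes of skeletal muscle were highest in the same 2 libraries. Ckm, the creatine kinase of muscle, stood at 221.3, 0.2174, 1.33 and 7.604 FPKM in FG and 0.09011, 0.7155, 75.52 and 27.52 in SG. Acta1, skeletal actin, was at 470.7 in FG 93, 134.7 in SG 104 and 51.42 in SG 105, and Myh4, a fast myosin, at 37.51, 18.2 and 5.812. The brown fat markers Ucp1 and Cidea stayed at or under 0.4452 and 0.696 FPKM. The summed list of these 5 genes ran from 0.8581 to 730.5 FPKM in FG and from 0.2567 to 228.6 in SG. What part such RNA plays in the values of other members was not tested. Of the called members, ND6 was highest in SG 104 and SG 105, but stood at 69.81 FPKM in FG 93, within the range of the other FG libraries. Without these libraries its log2 difference was 0.40 (limma adjusted p = 0.38). In that fit Ndufa8, Ndufb10 and Sdha were not called either (limma adjusted p = 0.282, 0.321 and 0.339). Their log2 differences there were -0.48, 0.28 and -0.23, beside -0.60, 0.28 and -0.25 on all 8 libraries. That fit had fewer libraries, and 0.75% of all tested genes were called in it, beside 19.4% on all 8. Why the calls were lost was not tested.

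**Figure D3:**
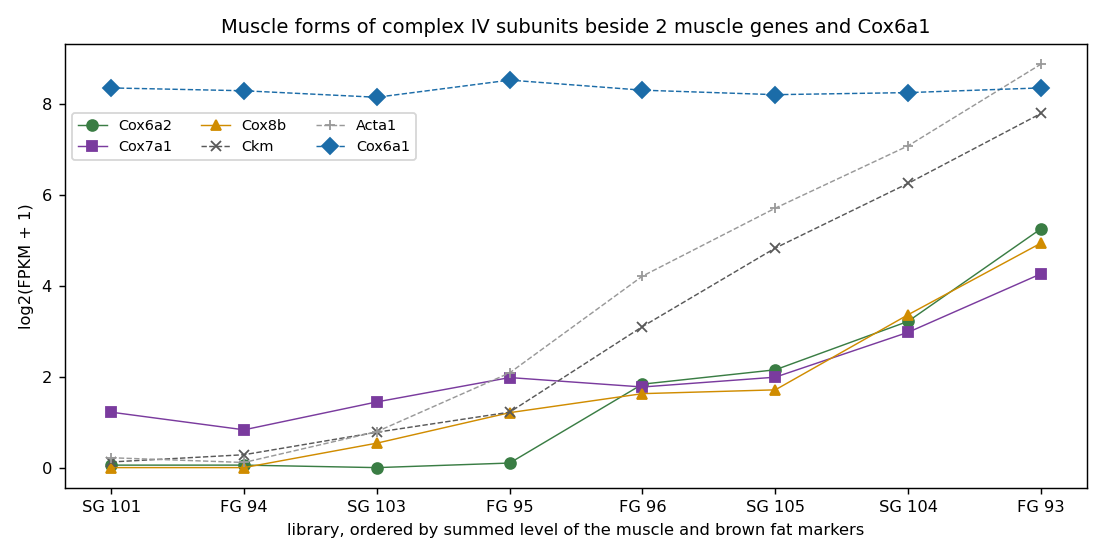
The vertical axis is log2(FPKM + 1) in each of the 8 libraries, which are ordered along the horizontal axis by their summed muscle and brown fat markers. Solid lines are the muscle forms Cox6a2, Cox7a1 and Cox8b, and dashed lines the muscle genes Ckm and Acta1 and the liver form Cox6a1. All 5 muscle genes are highest in FG 93 and next highest in SG 104, while Cox6a1 stays between 283.6 and 368.8 FPKM.

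Complex V, the ATP synthase, had 17 nuclear members, and none of them was called, beside 19.4% of all tested genes. The differences of the 17 were small and mostly of 1 sign. Of the 17, 16 were positive, beside 2969 of all 9867 tested genes. The median was 0.11, beside -0.14 for all tested genes. The median stayed positive after median-ratio, trimmed-mean and quantile scaling (0.28, 0.28 and 0.06, beside 0.00586, 0.000303 and -0.0102 for all tested genes). After these scalings 5, 3 and 0 of the 17 were called higher, beside 5.52%, 5.33% and 4.68% of all tested genes. Nuclear members moved together by library, and FG 95 was the highest FG library for 69 of the 93 tested. The 17 signs were therefore not independent. Atp5g3, which encodes the membrane ring that turns with proton flow, stood at 172.5, 175.3, 210.6 and 188.9 FPKM in FG and 237.1, 200.3, 211.6 and 217.4 in SG (log2 difference 0.21, limma adjusted p = 0.133). Only FG 95 reached into the SG range. The other 2 genes for that same ring protein, Atp5g1 and Atp5g2, differed by 0.12 and 0.11 (limma adjusted p = 0.596 and 0.539).

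Atp5k and Atp5j were higher in SG without overlap between the groups, as was so for 4.35% of all tested genes. Atp5k, subunit e of the dimer interface, ran from 154.5 to 178.5 FPKM in FG and from 181.4 to 196.4 in SG (log2 difference 0.17, limma adjusted p = 0.158). Atp5j, coupling factor 6 of the stalk, ran from 26.72 to 27.89 and from 28.72 to 30.81 (log2 difference 0.13, limma adjusted p = 0.211). The catalytic subunit Atp5b, the most abundant nuclear member at 613.7 to 777.5 FPKM, differed by 0.04. Atp5e, the small epsilon subunit, was the member with a negative difference (-0.15, limma adjusted p = 0.382). Atp5l shares 44.6% and Atp5h 16.9% of windows with processed pseudogenes, which leaves their values less certain.

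The 13 mitochondrial genes had a median difference of 0.23, and 11 of 13 differences were positive. On the deposited scale that median was the value of ND3, 1 of the 6 genes wholly inside the copied interval. FG 95 was the lowest FG library for 11 of the 13, so the signs were not independent. ND6 was called (7.69% of the 13, beside 19.4% of all tested genes). The median was 0.39 after median-ratio and after trimmed-mean scaling and 0.23 after quantile scaling. It moved with single libraries, to 0.41 without FG 94, 0.36 without SG 101 and 0.12 without FG 95. ND6, a complex I subunit and the protein gene on the light strand, stood at 69.81, 80.41, 51.45 and 70.98 FPKM in FG and 84.22, 91.42, 178.6 and 139.3 in SG. No SG value fell within the FG range, but the 4 SG libraries lay far apart. The means were 68.16 ± 12.1 and 123.4 ± 44.2 (SD, n = 4 each; log2 difference 0.80, SE 0.24, limma adjusted p = 0.0462). Among the 8 fits on 7 libraries the call held only without SG 101 (limma adjusted p up to 0.113). The end of ND6 overlaps ND5 on the opposite strand, and the strand setting of the counting is not known here. Reads from that overlap cannot be told apart.

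ND5, a proton pump of the complex I membrane arm, stood at 3227, 3815, 2435 and 2947 FPKM in FG and 3828, 4147, 3951 and 3931 in SG. The groups did not overlap, and FG 94 lay just under SG 101. The log2 difference was 0.37 (SE 0.132, limma adjusted p = 0.0774, exact two-sided permutation p = 0.0286), and the limma adjusted p was below 0.05 after median-ratio and trimmed-mean scaling, with library weights and without FG 94. Of the remaining core subunits, ND1 differed by 0.02, ND2 by -0.09 and ND4 by 0.21 (limma adjusted p = 0.887, 0.52 and 0.255). COX1, the catalytic subunit of complex IV and the most abundant of all members, stood at 14278, 15499, 13045 and 14566 FPKM in FG and 16926, 16327, 15750 and 14293 in SG (log2 difference 0.14, limma adjusted p = 0.342).

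Most genes wholly inside the copied interval had low levels beside their neighbours, and 4 of the 6 also had a wide spread. COX2, a subunit made in equal number with COX1 in the enzyme, was at 98.87 ± 17.7 FPKM in FG and 112.1 ± 8.27 in SG, against 14347 ± 1010 and 15824 ± 1130 for COX1 (SD, n = 4 each). The 6 genes inside (COX2, ATP8, ATP6, COX3, ND3 and ND4L) had single values from 4.321 to 196 FPKM, and the 7 others from 51.45 to 16926. Those 7 include COX1 and ND4, which are copied in part. The coefficient of variation within groups was 76.9% to 131% for ND3, ATP6, ATP8 and ND4L, but 13.1% for COX2 and 31.6% for COX3, within the 4.48% to 33.8% of the 7 others. In level, COX2 and COX3 overlapped ND6, the lowest of those 7. The median coefficient over nuclear members was 8.92%. What part the copy plays in these levels was not tested.

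ATP6, the proton channel subunit of complex V, had the largest estimate of all members on all 8 libraries, a rank that rested on SG 103. It stood at 25.3, 51.57, 24.52 and 27.4 FPKM in FG and 41.6, 196, 50.57 and 73.09 in SG. FG 94 lay above SG 101 and SG 104, and SG 103 lay far above the rest (log2 difference 1.25, SE 0.446, limma adjusted p = 0.0777). Without SG 103 the log2 difference was 0.79 (limma adjusted p = 0.101), below the 0.92 of ND6 in that fit, and without SG 101 it was 1.52 (limma adjusted p = 0.0413). ATP8, its neighbour, was at 31.42 in FG 94 and 30.85 in SG 103 and at 4.321 to 11.14 FPKM elsewhere. ND4L was at 163.1 in FG 93 and 104.1 in SG 105 and at 12.03 to 32.8 elsewhere. ND3 was at 29.91 in FG 94 and at 5.408 to 14.84 elsewhere. COX3 was lowest in FG 93 and SG 101 at 47.18 and 49.67, beside 86.19 to 121.9 in the other 6. Each of these genes thus had its extreme values in 1 library of each group or in 1 library of FG alone, and the limma adjusted p was 0.458 to 0.785 for the 4 genes other than ATP6.

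**Figure D4:**
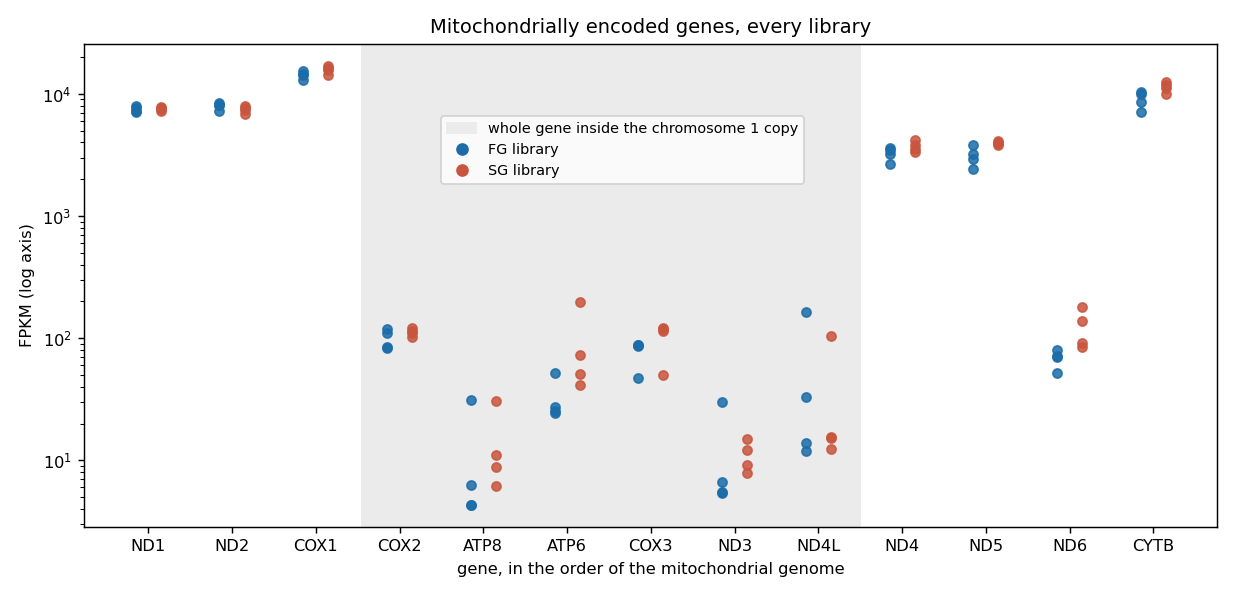
FPKM of the 13 mitochondrial protein genes (vertical log axis) in the order of the mitochondrial genome, with 1 point for each FG (blue) and SG (red) library. The grey band marks the 6 genes that lie wholly inside the interval copied on chromosome 1, where values run from 4.321 to 196 FPKM. Outside it, ND6 is the lowest gene and COX1 the highest, at up to 16926.

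The 2 genomes were compared library by library through summed values. The 6 mitochondrial genes wholly inside the copied interval held only 4.321 to 196 FPKM each. Except for complex V, the mitochondrial sums, fragment shares and ratios thus rest mostly on the 7 others. The mitochondrial genes summed to 45760, 49871, 39985 and 46299 FPKM in FG and 49595, 53340, 51150 and 47535 in SG. FG 94 lay inside the SG range and the other 3 FG libraries below it. The mean sum was 1.11 times as high in SG, while the nuclear sum was 11524 ± 734 FPKM in FG and 11628 ± 550 in SG (SD, n = 4 each), a ratio of 1.01. By complex, the SG to FG ratio of the mitochondrial sums was 1.05 for complex I, 1.26 for complex III, 1.1 for complex IV and 2.39 for complex V. That of the nuclear members, without Cyc1 in complex III, was 0.974, 1.02, 0.993 and 1.06. The mitochondrial sum of complex V was small (43.79 and 104.6 FPKM) and came from ATP6 and ATP8 alone, both inside the copied interval. The ratio was 0.955 for complex II. No test was made on sums.

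As a share of all counted fragments, the mitochondrial genes held 5.84%, 6.42%, 5.1% and 5.93% in FG and 6.45%, 6.88%, 6.59% and 6.12% in SG, and the nuclear members 1.11% to 1.29% in FG and 1.11% to 1.27% in SG. The ratio of the mitochondrial to the nuclear sum was 3.94, 4.62, 3.2 and 4.14 in FG and 4.05, 4.89, 4.39 and 4.06 in SG, and the groups overlapped.

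Within each group, the library that was highest for most nuclear members was the lowest for most mitochondrial ones. FG 95 was the highest FG library for 69 of the 93 tested nuclear members and the lowest for 11 of the 13 mitochondrial ones. FG 94 was the lowest for 50 nuclear members and the highest for 10 mitochondrial ones. In SG, SG 101 was the highest for 54 nuclear members and the lowest for 9 mitochondrial ones, and SG 103 the lowest for 47 and the highest for 7. For nuclear members the spread within a group was larger than the difference between the groups. Their median deviation from each gene's mean ran from -0.09 to 0.12 in FG and from -0.09 to 0.08 in SG. The group means of that deviation were -0.0025 and -0.01. For mitochondrial members it ran from -0.51 to 0.11 in FG and from -0.05 to 0.25 in SG, with means of -0.1775 and 0.11.

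**Figure D5:**
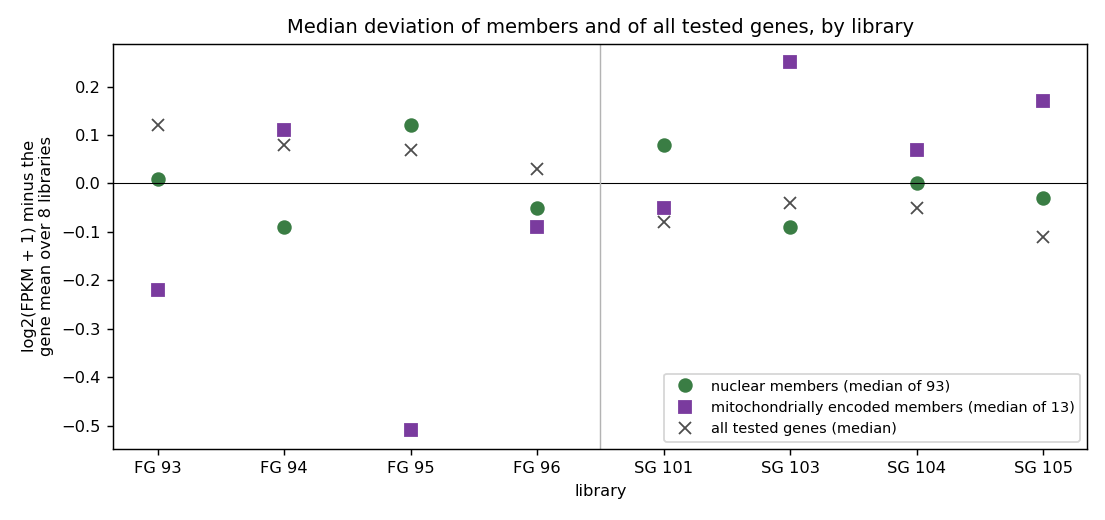
For each library (horizontal axis), the median over genes of log2(FPKM + 1) minus the gene's mean over the 8 libraries. Circles are the 93 tested nuclear members, squares the 13 mitochondrial genes and crosses all tested genes. The crosses are above 0 in all FG libraries and below 0 in all SG libraries, whereas nuclear members run from -0.09 to 0.12 in FG and from -0.09 to 0.08 in SG.

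Genes that serve the chain were counted from lists of known roles. In the same fit 3.73% of all tested genes were called higher and 15.6% lower, with a median of -0.14. Electron carriers had 1 call among 6 (16.7%): Etfb, which hands electrons from fatty acid oxidation to the chain, rose from 241 ± 14.4 to 312.2 ± 26.1 FPKM (SD, n = 4 each; log2 difference 0.37, limma adjusted p = 0.0216). Cyc1, a subunit of complex III outside the chosen symbols, and Cycs, which is cytochrome c, differed by 0.01 and 0.13 (limma adjusted p = 0.949 and 0.286). Among 14 inner membrane carriers and supercomplex factors, 2 rose and 0 fell (14.3% and 0, beside 3.73% and 15.6% of all tested genes). Slc25a20, the carnitine-acylcarnitine carrier that admits fatty acids, went from 55.15 to 62.34 FPKM in FG to 75.1 to 94.77 in SG (log2 difference 0.51, limma adjusted p = 0.0116), and Slc25a13, an aspartate-glutamate carrier, differed by 0.40 (limma adjusted p = 0.0248). The call of Slc25a20 held in all 8 fits without 1 library. That of Etfb was lost without FG 93, FG 94, FG 96 or SG 104, and that of Slc25a13 without FG 93, FG 95, SG 103 or SG 104 (limma adjusted p up to 0.0608 and 0.0681).

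Assembly factors help insert copper, heme and iron-sulfur clusters and join the subunits. For complex IV, 1 of 19 rose and 4 fell, 26.3% beside 19.4% of all tested genes. The list's median of -0.16 was close to the -0.14 of all tested genes. Cox19, a copper-handling factor, fell by 0.60 on the log2 scale, Cmc2 by 0.36 and Coa5 by 0.35 (limma adjusted p = 0.0197, 0.0244 and 0.0201). The rise was that of Coa6 (log2 difference 0.52, limma adjusted p = 0.035), and the other fall that of Cox10, which makes heme O (-0.43, limma adjusted p = 0.0341), both named after their values were seen. Of 10 further complex I factors, Ecsit fell (log2 difference -0.42, limma adjusted p = 0.0344), and of 13 factors of complexes II, III and V, Uqcc2 did (-0.45, limma adjusted p = 0.0237). After median-ratio scaling no gene of these 3 lists was called lower, and the medians were between -0.05 and 0.01. When 1 library was left out, the call of Cox19 was lost without SG 103 or SG 105, that of Coa5 without FG 93, FG 95 or SG 103, and that of Uqcc2 without FG 93, FG 95, SG 103 or SG 104 (limma adjusted p up to 0.0529, 0.0615 and 0.0714). That of Cmc2 was lost without FG 93, FG 96, SG 103, SG 104 or SG 105, that of Cox10 in all fits but those without FG 94 or SG 101, that of Ecsit in all but that without SG 101, and that of Coa6 in all but that without FG 95 (limma adjusted p up to 0.0681, 0.0947, 0.085 and 0.0838).

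Of 26 tested genes that copy, transcribe or process the mitochondrial genome and its RNA, 1 rose and 3 fell (15.4%, beside 19.4% of all tested genes). Hsd17b10, a dehydrogenase that is also part of the RNase P that cuts mitochondrial precursors, stood at 96.21, 127.8, 121.5 and 121.8 FPKM in FG and 186.6, 185.3, 168 and 163.1 in SG. All SG values lay above all FG values (log2 difference 0.59, SE 0.106, limma adjusted p = 0.00847, and at most 0.0268 without any 1 library). Mgme1, a nuclease of mitochondrial DNA, fell from 2.622 ± 0.247 to 1.571 ± 0.222 FPKM (SD, n = 4 each; limma adjusted p = 0.0126), and Supv3l1, an RNA helicase, from 9.179 ± 0.85 to 6.798 ± 0.449 (limma adjusted p = 0.0244). Among fits without 1 library, the fall of Supv3l1 passed without FG 94 or SG 101 and in no other (limma adjusted p up to 0.072). Pde12, which shortens poly(A) tails, was the other fall and was named after its values were seen (limma adjusted p = 0.03, and up to 0.0855 without FG 93, FG 95, FG 96 or SG 103). Tfam and Polrmt, which package and transcribe the mitochondrial genome, and Lrpprc, which stabilizes its messenger RNA, differed by -0.07, -0.15 and -0.09 (limma adjusted p = 0.65, 0.327 and 0.437).

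Of 78 mitochondrial ribosomal proteins, which translate the 13 mitochondrial genes, 9 fell and 0 rose (11.5%, beside 15.6% of all tested genes called lower and 3.73% higher), with a median of -0.21. After median-ratio scaling 1 fell and the median was -0.05. Mrps18b went from 16.93 to 20.87 FPKM in FG to 10.35 to 13.53 in SG (log2 difference -0.61, limma adjusted p = 0.00801, and at most 0.0261 without any 1 library). Mrps23 and Mrps22 fell by 0.44 and 0.40 (limma adjusted p = 0.0303 and 0.0322), calls lost for Mrps23 without FG 93, FG 95, FG 96, SG 104 or SG 105 and for Mrps22 in all but the fit without SG 101 (limma adjusted p up to 0.085 and 0.0745). None of 12 tested genes of coenzyme Q synthesis was called, beside 19.4% of all tested genes.

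No regulator was called among 8 tested, beside 19.4% of all tested genes, and 3 had an unadjusted p below 0.05, beside 35.6%. These 3, named after their values were seen, were all lower in SG: Yy1 (-0.36), Ppargc1b (-0.28) and the deacetylase Sirt3 (-0.21), with limma adjusted p = 0.0731, 0.13 and 0.137. The groups did not overlap for Yy1 and Sirt3, as was so for 26.1% of all tested genes (4.35% higher and 21.8% lower). Esrra and Gabpa, which bind promoters of respiratory genes, differed by -0.21 and 0.13 (limma adjusted p = 0.269 and 0.652). Nrf1 lay under the filter at 0.5407 to 0.8667 FPKM. Ppargc1a, the coactivator of mitochondrial biogenesis and of gluconeogenesis, stood at 0.8098, 0.7122, 0.5109 and 0.6939 FPKM in FG and 0.7644, 0.8923, 2.305 and 2.378 in SG and was not tested either. Its 2 high libraries were SG 104 and SG 105, and the other 2 SG libraries lay within or near the FG range.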

How the data were processed

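Liver RNA from 4 FG and 4 SG libraries was measured by RNA sequencing. Per the labels' protocols, TRIzol RNA was enriched for mRNA and read as 150 bp pairs (NovaSeq 6000). The submitters' processing notes name the tools fastp, HISAT2, HTSeq, DESeq2 and the builds GRCm38, mm10. Versions, strand setting and the handling of multiply placed reads are not given in the sources used here. The deposited values are FPKM computed by the authors for 21358 genes; 0 expression columns were left unmatched to a sample.

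Values log2(FPKM + 1) of genes with at least 1 FPKM in at least 4 libraries entered a linear model in limma 3.58.1 (R 4.3.3; all 8 libraries, mean-variance trend, no covariates), with Benjamini-Hochberg adjustment over all 9867. Exact permutation tests covered 70 assignments. The fit was tested on simulated data. Pseudogene windows came from GENCODE vM21 transcripts. Fragment totals were worked back from the smallest steps in FPKM (whole within 0.02 fragments for 100% of genes; scale set by 442 genes of known length). They give the depth and entered no test; counting error is not part of the SD.

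Alternatives covered pseudocount 0.1, no filter or a mean of 5 FPKM, 5 scalings (median-ratio, trimmed-mean, quantile, TPM, and without mitochondrial genes and the 10 most abundant), no trend, library weights, a threshold of 0.01, and leaving out libraries. Members and lists were chosen with earlier results of these data known. Named were all 13 mitochondrial genes, called members, up to 5 per direction with the smallest p and the 2 largest changes per complex, the most and least abundant, isoform pairs, and up to 3 called genes per list with a fixed set of regulators; other members shown for their role were chosen after their values were seen. Coa1, Sco2 and Pet117 are not analysed here.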

Additional observations from a re-analysis of the deposited data

Results flagged for a closer look

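In 98 groups of 4 values (49 named members in 2 groups), 14 had 1 library whose gap to its nearest neighbour took a share of the group's range above Dixon's 95% limit. Chance flags about 1 in 20 groups, and libraries recur among these 14, so they are not independent.

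FG 93 accounted for 5. It was highest in FG for Cox6a2 at 37.25 FPKM, Cox7a1 at 18.24, Cox8b at 29.74 and ND4L at 163.1, and lowest for COX3 at 47.18, where the other 3 FG libraries had 86.19 to 88. FG 94 was highest in FG for ATP6 at 51.57, ATP8 at 31.42 and ND3 at 29.91 FPKM. In SG, SG 101 was lowest for COX3 at 49.67 and highest for Ndufa4l2 at 2.811, Ndufa8 at 114.2 and Ndufaf5 at 1.856 FPKM. SG 105 was highest for ND4L at 104.1, and SG 104 for Ndufaf8 at 19.34 beside 16.67 to 17.12 in the other SG libraries. Of the 14, 7 fell on genes inside the interval copied on chromosome 1.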

How the results depend on the processing

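No paired analysis was possible because the groups share no replicate numbers. Over all tested genes, counts called higher and lower were 219 and 914 without a filter, 99 and 316 at a threshold of 0.01, and 24 and 50 without FG 93, SG 104 and SG 105 together. Library weights gave 572 higher. Calls lower were 499, 510 and 616 after median-ratio, trimmed-mean and quantile scaling. Leaving out 1 library gave 181 to 467 higher and 653 to 1896 lower. The median was -0.0209 without a filter, 0.00586, 0.000303 and -0.0102 after those 3 scalings, and -0.184 for TPM.

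Mitochondrial members called higher numbered 2 with median-ratio or trimmed-mean scaling or library weights, and 0 with no filter, quantile, TPM, rescaling without mitochondrial and top genes, the threshold of 0.01 or the 3 libraries left out; without 1 library it was 0 to 2. Nuclear members called higher numbered 10 and 9 after median-ratio and trimmed-mean scaling, 3 with weights, and 0 with no filter, quantile, TPM, no trend, the threshold of 0.01 or the 3 libraries left out (0 to 2 without 1 library). Those called lower numbered 4 with weights, 1 with no trend, and 0 after median-ratio or trimmed-mean scaling, at 0.01 or with the 3 left out (0 to 2 without 1). Their median was 0.138 and 0.131 after median-ratio and trimmed-mean scaling. The causes were not tested.

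No called member changed sign under any of the 20 alternatives. Of 47 named members tested, 20 changed sign in some alternative while not called, and 10 that were not called passed in some alternative. Depth limits the low members: Cox8b rested on 0 to 413 fragments per library and ATP8 on 35 to 250.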
